A study of Mus musculus with 31 samples.

Results

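The members described here are 8224 autosomal genes of newborn (P0) mouse cortex whose B6 allele stood on the same side of the JF1 allele in both directions of a cross. A gene was a member when the mean B6 share of its read bases was above 50% in the BJ1 libraries and in the JB6 libraries, or below 50% in both. They were 79.1% of the 10402 autosomal genes with a mean of 20 or more read bases per library, out of 15494 autosomal features in the P0 table. The B6 side held 4671 members and the JF1 side 3553. Lying on one side in both crosses was the condition for membership and is no result of its own.

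In an F1 hybrid, both parental alleles of a gene lie in the same nucleus and meet the same transcription factors. A lasting difference in the RNA from the alleles is therefore usually read as a difference in cis, in the promoter, enhancers, splicing or RNA stability encoded on each chromosome. Imprinting also makes alleles unequal, but it follows the parent and not the strain, and reciprocal crosses separate these effects. C57BL/6 (B6) is the common laboratory strain behind the mouse reference genome, and JF1 is an inbred strain derived from Japanese fancy mice, largely of Mus musculus molossinus origin.

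BJ1 cortices came from a B6 mother and a JF1 father (4 libraries, 3 female and 1 male), and JB6 cortices from a JF1 mother and a B6 father (3 libraries, all female), so the B6 allele is maternal in BJ1 and paternal in JB6. Both parents were of pure strains, per the deposited readme. Each library was polyadenylated RNA from P0 cortex, sequenced with strand kept. The other groups used below are E13.5 tissue of the same crosses (3 libraries each, labelled DT), and cultured hybrid embryonic stem (ES) cells and their cortical derivatives at days 12 and 21 (2 libraries per cross and stage). The cultured cells came from a B6 line carrying a Pou5f1-GFP transgene with traces of CBA genome. The readme calls each library a biological sample, but neither it nor the labels say which animals or litters they came from, so p-values measure the spread between these libraries.

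What was counted is the read base: a base sequenced at a position where B6 and JF1 differ, in sense to the gene. P0 libraries held 5568218 to 7815581 read bases over 14242 to 14660 genes. B6 took 51.6 to 51.8% of autosomal read bases in every library. Mitochondrial genes, inherited from the mother, were 99.8% B6 in the 4 BJ1 libraries and 4.76 to 5.06% B6 in the 3 JB6 libraries, and X-linked read bases of the male library were 98.8% maternal. Markers of cortical glutamatergic neurons summed to 753 to 946 CPM, taken over all read bases of a library, GABAergic neurons to 367 to 476, astroglia to 695 to 1051 and striatal neurons to 72.0 to 172. Meningeal markers summed to 37.8 to 83.6 and endothelial ones to 32.9 to 55.5 CPM, and the liver genes Alb and Afp together stayed at or under 0.867 CPM. These sums depend on the strain differences covered in each gene and on the number of markers, so they do not compare cell types. Each allele comparison below is made within a library, so both alleles share its cells, and bulk tissue cannot tell fewer cells of a type from less RNA per cell.

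Among the members, B6 read bases exceeded JF1 read bases for 3022 genes and JF1 exceeded B6 for 1958 at an adjusted p under 0.05 (edgeR quasi-likelihood test with Benjamini-Hochberg adjustment over all 10402 genes). The 4980 called members are 60.6% of the members, beside 48.2% of all genes tested (29.2% B6 higher, 19% JF1 higher). Membership used the same read bases, so nothing is read from that gap. In 3406 called members, all 7 libraries lay on the same side of 50%. The median size of the difference was 0.38 on the log2 scale in called members, 0.40 on the B6 side and 0.34 on the JF1 side. A log2 difference of 1 or more was reached by 364 members on the B6 side and 161 on the JF1 side, and one of 2 or more by 99 and 39. Over all genes tested the median was 0.04 toward B6. With a TMM scaling factor for each allele column, which centres the alleles on each other, the median moved by -0.04 and the calls split into 2591 B6 higher and 2418 JF1 higher, so the surplus on the B6 side was smaller with that scaling. DESeq2 called 2099 genes B6 higher and 1250 JF1 higher over all genes, against 3040 and 1972. The submitters' notes name build mm9, and B6 is the strain behind the mouse reference genome. Any part of the alignment in the surplus on the B6 side was not tested.

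**Figure D1:**
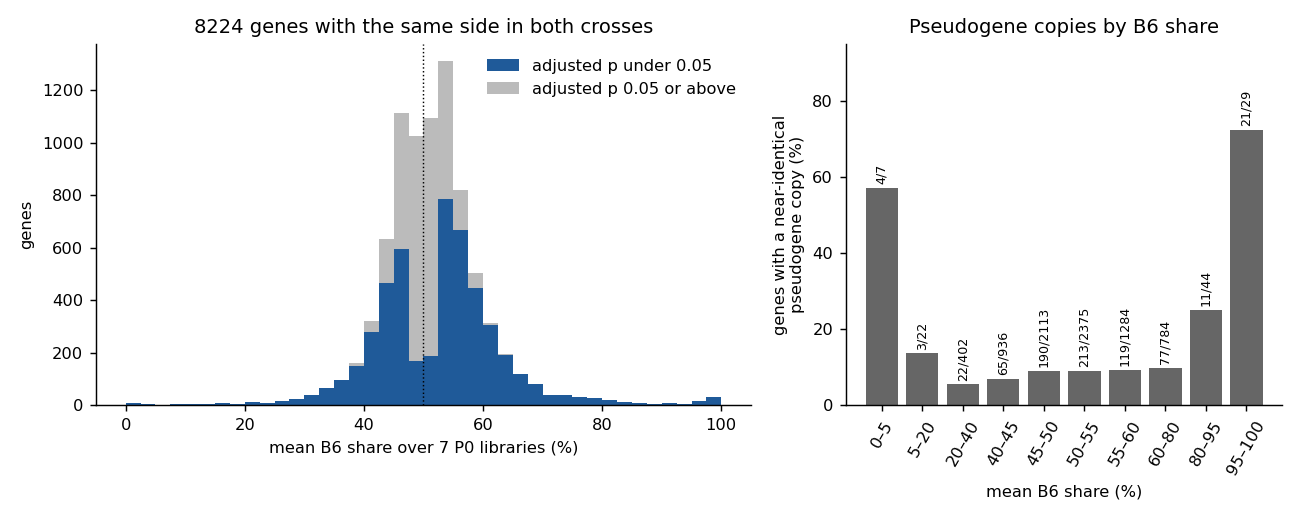
Left, number of member genes by mean B6 share over 7 P0 libraries in steps of 2.5%, with called genes in blue and the others in grey. Right, percentage of members of each share class with a coding sequence that have a near-identical pseudogene copy, with the counts above the bars: 57.1% at 0 to 5% B6 and 72.4% at 95 to 100% B6, against 5.47 to 9.82% between 20 and 80%.

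A small set of members was read almost wholly from one allele: 45 genes at 95% B6 or more and 12 under 5% B6. Several of the best covered on the B6 side are household genes. Nhp2l1 (NCBI gene 20826, chromosome 15), an RNA-binding protein of the spliceosome and of small nucleolar particles, had 12406 B6 read bases and 2 JF1 read bases over the 7 libraries. H3f3a (gene 15078, chromosome 1), which encodes a histone variant deposited outside DNA replication, had 28041 B6 and 9 JF1 read bases. Hmgn2, a nucleosome-binding protein on chromosome 4, had 17027 B6 and 7 JF1, and Sumo2, a ubiquitin-like modifier, had 12390 B6 and 6 JF1. The chaperone Hspa8 had 5885 B6 and 1 JF1, and the ribosomal protein gene Rpl15 had 12615 B6 and 8 JF1. In these 6 genes the B6 share was 99.9 to 100% in all 7 libraries. Ubb, a polyubiquitin gene, ran at 99.6 to 99.8% B6 with 4141 read bases per library, and Hmgb1, a chromatin protein, at 95.4 to 96.8% with 3907. Ppp1cc, a phosphatase subunit, had 99.3 to 100% B6 and Hnrnpf, a splicing regulator, 99.1 to 99.7%. These are shares of the covered positions only: Rpl15 and Hspa8 were each read at 1 strain difference, H3f3a and Sumo2 at 2. Myo7a, a myosin of hair cells and retina, differed in that it was read at 38.7 strain differences with no copy found, at 94.7 to 97.6% B6.

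On the JF1 side, Tsnax (gene 53424, chromosome 8), the partner of the RNA-binding protein translin, had 5 B6 and 4813 JF1 read bases over an average of 23 strain differences. Its B6 share was 0 to 0.248%. In the 3 libraries without a B6 read base, the 545 to 905 read bases of the gene allow a B6 share of up to 0.332 to 0.551% (a limit of 3 counts, for counting error only). Morf4l1, a chromodomain protein of histone acetyltransferase complexes on chromosome 9, had 10 B6 and 3209 JF1 read bases, with 0 B6 in 5 libraries, 1.06% in BJ1 replicate 4 and 1.09% in JB6 replicate 3. 6430706D22Rik ran at 1.51 to 3.72% B6. Gapdh (gene 14433, chromosome 6), the glycolytic enzyme often used as a reference transcript, had 10.3, 11.9, 12.3 and 12.3% B6 in BJ1 and 10.5, 11.3 and 11.1% B6 in JB6. That is 11.4% ± 0.804 (SD, n = 7), and JF1 was 7.85-fold higher than B6 (log2 -2.97, SE 0.0328, adjusted p 9.50e-43).

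Near-complete genes differed from the other members in 2 features that the rule did not use. Of the 57 genes at 95% or more from 1 allele, 36 had a coding sequence in GENCODE M21, and 25 of those (69.4%) had at least 1 pseudogene copy at 90% identity or more over at least 50% of it. Among the other members 700 of 7960 (8.79%) had one. H3f3a had 40 such copies, Hmgn2 23, Rpl15 22, Sumo2 13, Morf4l1 7 and Tsnax 2. Gapdh, which is outside the 57 genes, had 155. The 57 genes also rested on fewer positions: 24 of them (42.1%) were read at 3 or fewer strain differences on average, against 775 of 8167 other members (9.49%). Their median depth was lower too, at 81.1 read bases per library against 232, and positions and depth were not told apart. Read bases at a copy and at its parent gene can be assigned to either where the sequences are alike, and positions of the strain differences are not in the tables. The part of such copies in these shares was not tested. The copy search was chosen after the shares were seen.

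The coding stretches of 120 bases below show how alike gene and copy can be. They were read from GENCODE M21 transcripts (build GRCm38), 5′ to 3′ on the coding strand, with capitals at the bases that differ between the gene and its closest pseudogene copy. H3f3a and Gm10257 differ at 2 of 120 bases shown and match at 407 of 411 aligned bases. Nhp2l1 and Gm5616 differ at 2 of 120 and match at 382 of 384.
H3f3a, chr1:180810151-180810270, - strand: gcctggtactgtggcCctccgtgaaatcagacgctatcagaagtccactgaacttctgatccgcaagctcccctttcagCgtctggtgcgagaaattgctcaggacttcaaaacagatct
Gm10257, chr13:100946568-100946687, - strand: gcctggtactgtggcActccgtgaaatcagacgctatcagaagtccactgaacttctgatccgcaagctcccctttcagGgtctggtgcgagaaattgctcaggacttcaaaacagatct
Nhp2l1, chr15:82042249-82042368, - strand: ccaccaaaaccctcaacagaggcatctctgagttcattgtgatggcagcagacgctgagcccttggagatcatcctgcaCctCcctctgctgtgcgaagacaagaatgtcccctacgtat
Gm5616, chr9:48450524-48450643, + strand: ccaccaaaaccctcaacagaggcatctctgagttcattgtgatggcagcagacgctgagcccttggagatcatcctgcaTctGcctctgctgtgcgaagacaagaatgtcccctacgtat
The stretches of Gapdh and Morf4l1 that follow have no capitals, since their closest copies, Gm7336 on chromosome 7 and Morf4l1-ps1 on chromosome 16, are identical over them. Gapdh and Gm7336 match at 1020 of 1020 aligned bases, and Morf4l1 and Morf4l1-ps1 at 812 of 814. Tsnax, whose stretch is not shown, was less like its closest copy, Gm8010, at 841 of 874 aligned bases.
Gapdh, chr6:125163317-125163436, - strand: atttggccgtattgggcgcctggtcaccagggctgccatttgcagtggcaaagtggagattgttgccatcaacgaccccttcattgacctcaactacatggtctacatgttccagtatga
Morf4l1, chr9:90094408-90094527, - strand: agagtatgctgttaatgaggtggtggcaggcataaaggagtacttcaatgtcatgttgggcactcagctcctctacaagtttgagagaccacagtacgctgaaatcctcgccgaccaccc
Close copies were found on both sides, in 21 of 29 genes at 95% B6 or more and in 4 of 7 genes under 5% B6.

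Of the called members, 1501 were read at 10 or more strain differences with 200 or more read bases per library, a coding sequence with no copy found and all 7 libraries on 1 side, 923 of them B6 higher and 578 JF1 higher. None of these 1501 was at 95% or more from 1 allele, which depends on the conditions of the set. In all, 14 near-complete genes were read at 10 or more strain differences. One of them, 4933431E20Rik, had 98.4% B6 with 224 read bases and 22.3 strain differences, but no coding sequence to search. Below the floor of 200 read bases, 5 of the 14 had a coding sequence with no copy found. They were Myo7a at 96.0% B6 with 195 read bases per library, Car15, Ovgp1 and Cyp2d22 at 95.2 to 96.4% B6 and Wee2 at 2.77% B6, these 4 genes with 22.3 to 77.7 read bases. Of the 1501 members, 57 reached a log2 difference of 1 or more (42 B6, 15 JF1). This set, and the genes described from it, were chosen after values were seen.

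Rfxap (gene 170767, chromosome 3) encodes a subunit of a factor that activates MHC class II genes. It had 83.1, 77.5, 83.7 and 81.8% B6 in BJ1 and 79.4, 82.4 and 85.3% B6 in JB6, with 19.1 strain differences and 343 read bases per library. B6 was 4.58-fold higher than JF1 (log2 2.20, SE 0.0819, adjusted p 6.56e-24). Sys1, a Golgi membrane protein, stood at 81.9% ± 4.11 B6 (SD, n = 7). Sema3c, a secreted semaphorin that guides axons and migrating cells, had 84.1, 82.4, 79.0 and 81.5% B6 in BJ1 and 79.0, 78.5 and 74.9% B6 in JB6. Its log2 difference was 1.98 (SE 0.0678, adjusted p 3.68e-25). The RNA-binding protein gene Rbm15b spread more widely, at 71.6 to 88.2% B6. Srl, Dennd1a, Fam134c, Mrpl9 and 4833420G17Rik followed at means of 74.6 to 79.5% B6.

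Among the 10 JF1-side genes of the same set, Dpysl2 (gene 12934, chromosome 14) had the most read bases, 4810 per library over 24 strain differences. It encodes a collapsin response mediator that binds tubulin in growing axons. It had 23.7, 23.6, 23.8 and 24.03% B6 in BJ1 and 26.0, 26.8 and 28.4% B6 in JB6. JF1 was 2.94-fold higher than B6 (log2 -1.55, SE 0.0229, adjusted p 2.99e-38). Aox4, an aldehyde oxidase, was the most one-sided of these genes at 15.5% B6 ± 2.25 (SD, n = 7). The kainate receptor subunit gene Grik4 stood at 25.0% ± 3.02, the MHC class I gene H2-K1 at 25.3% ± 2.21 over 43 strain differences, and Lyrm7, an assembly factor of the respiratory chain, at 25.8% ± 1.37. Zfp658, Ccdc149, Col12a1, Wdfy1 and Pcdhga7 followed at means of 27.0 to 29.9% B6. In Col12a1, a collagen gene, 6 libraries lay at 23.2 to 28.6% B6 and JB6 replicate 3 at 41.4%.

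**Figure D2:**
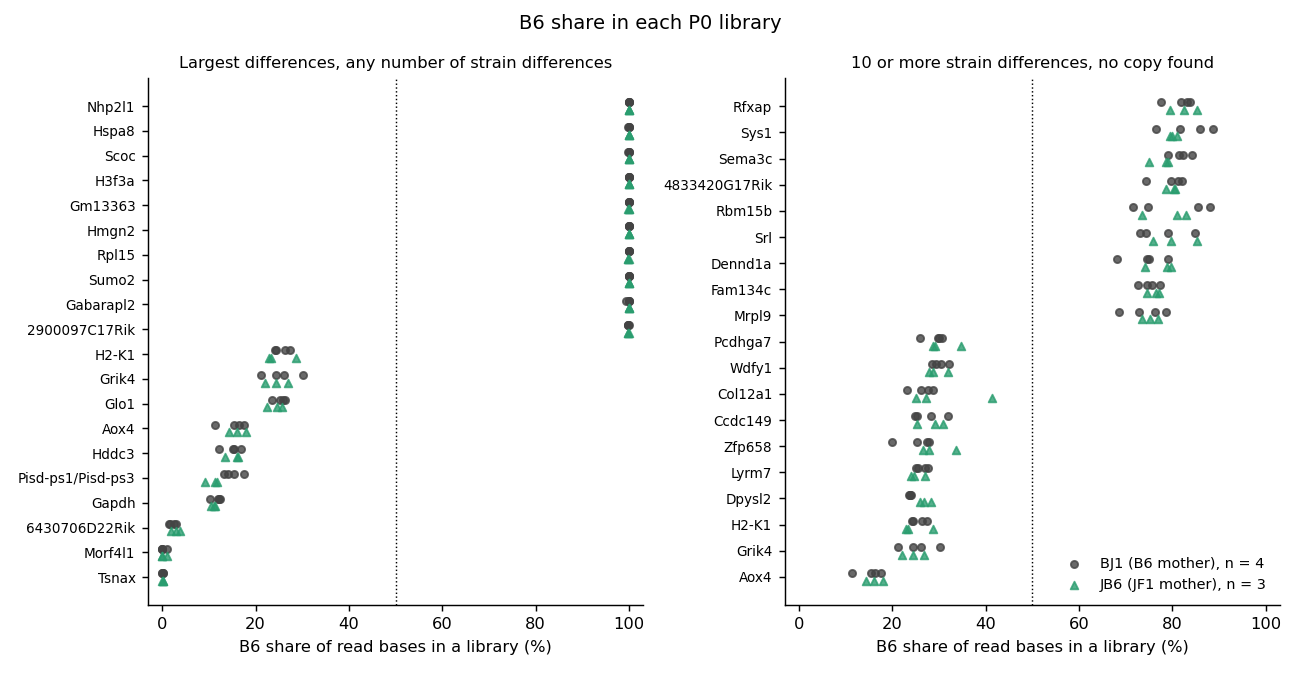
B6 share of read bases (percent, horizontal axis) in each P0 library for named genes, with circles for the 4 BJ1 libraries and triangles for the 3 JB6 libraries. Left, the 10 called genes per direction with the largest differences. Right, the genes described from the set with 10 or more strain differences and no copy found. Rfxap, for example, lay at 77.5 to 85.3% and Aox4 at 11.3 to 18.0%. All 7 libraries on the same side of 50% was a condition for both panels and is no result of its own.

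The 10 called members with the most read bases included several genes of the neuronal cytoskeleton. Tubb2b, a beta tubulin with 38977 read bases per library, was close to even at 51.5% B6 ± 0.543 (SD, n = 7). The microtubule-associated protein genes Mapt (tau) and Mtap1b stood at 54.98% ± 0.475 and 48.6% ± 0.625 B6. Tuba1a, an alpha tubulin, had 78.4 to 81.1% B6 in the 7 libraries and a log2 difference of 1.97 (SE 0.0222, adjusted p 3.74e-36), with 9 near-identical copies and 5 strain differences. Stmn1, which destabilises microtubules, had 75.6 to 76.9% B6, and Actg1, a cytoplasmic actin, 84.2 to 86.6%, with 1 and 9 copies. Scd2, a fatty acid desaturase read at 42.3 strain differences without a copy, had 58.4% ± 0.437 B6, and the adaptor gene Ywhag 54.3% ± 0.442. Cfl1 (cofilin) stood at 49.2% and Gng2, a G protein subunit, at 50.7% B6. The calls of Cfl1, Tubb2b, Mtap1b and Gng2 ended when limma was used on the log2 ratio of the alleles, at an adjusted p of 0.41 for Cfl1, 0.131 for Tubb2b, 0.168 for Mtap1b and 0.446 for Gng2. Gng2 also changed direction with TMM factors per allele (log2 -0.00235, adjusted p 0.925), so its direction depends on how alleles are scaled.

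Lists of genes by role, chosen with earlier results of these data known, were described by the count of members called in each direction, beside 47.9% of all 10402 genes tested that were members and called. Among 27 transcription factors of cortical projection neurons, 21 were members, of which 4 were called B6 higher and 8 JF1 higher (44.4% of those tested), with a median log2 difference of -0.02 against 0.04 over all genes. Cux1, an upper-layer homeobox factor, had 63.2, 68.4, 59.7 and 65.7% B6 in BJ1 and 61.8, 64.4 and 64.4% B6 in JB6 (log2 0.82, SE 0.0689, adjusted p 5.97e-13). Tbr1, a deep-layer factor, stood at 55.8% ± 2.14 B6 (SD, n = 7). Eomes, a factor of intermediate progenitors, had 34.3 to 44.4% B6, and Rorb, a layer IV factor, 34.1 to 45.6% B6, so every library lay on the JF1 side for both genes. Of 13 genes of GABAergic interneurons, 2 were called B6 higher and 4 JF1 higher. Both enzymes that make GABA were lower from B6, with Gad1 at 45.5% ± 2.98 and Gad2 at 45.8% ± 2.49 B6. The JF1-side call of Dlx2 ended in 5 alternatives and the B6-side call of Reln in 12, at 44.5 and 51.1% B6.

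Of 20 glial genes, 14 were members and called (70%), 7 in each direction, with a median log2 difference of 0.06. Aldoc, an aldolase of astrocytes, had 59.3, 63.1, 63.9 and 60.7% B6 in BJ1 and 63.5, 61.7 and 61.0% B6 in JB6 (log2 0.69, SE 0.0430, adjusted p 8.33e-17). Clu, a secreted chaperone, stood at 57.4% ± 2.27 and Fabp7, the fatty acid-binding protein of radial glia, at 56.6% ± 1.37 B6. Aqp4, the water channel of astrocyte end-feet, lay on the other side at 34.0% ± 3.23 B6. S100b varied between 0 and 37.5% B6 on only 33.4 read bases per library. The direction thus differed between genes of the same cell type. Of 12 vascular, blood, meningeal and microglial genes 2 members were called B6 higher and 1 JF1 higher, and of 7 striatal and ventral forebrain genes 1 each.

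Genes of neuronal signalling were called in both directions. Among 31 receptors for glutamate, GABA and glycine, 10 members were B6 higher and 8 JF1 higher (58.1% of those tested). Gabbr1, a GABA-B receptor subunit, had 54.1 to 57.4% B6, and the NMDA receptor subunit gene Grin2c 15.4 to 38.7% B6. Among 47 voltage-gated ion channels, 13 were B6 higher and 7 JF1 higher (42.6%). The potassium channel gene Kcna6 had 67.3, 68.3, 70.2 and 71.6% B6 in BJ1 and 66.4, 67.4 and 63.1% B6 in JB6 (log2 1.04, SE 0.0525, adjusted p 1.25e-19). Kcnd2, another potassium channel gene, stood at 58.4% ± 2.33 B6. The calcium channel subunit gene Cacnb4 stood at 40.5% ± 4.44 and Cacna1g, a T-type calcium channel, at 45.7% ± 2.55 B6. Among 54 axon guidance genes, 16 were B6 higher and 12 JF1 higher (51.9%). Beside Sema3c, the ephrin receptor gene Epha4 had 54.98 to 60.3% B6, while Sema3e, a semaphorin, had 34.0 to 51.2%, with 1 library above 50%.

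Ribosomal protein genes gave a high share of calls: 45 of 52 were members and called (86.5%), 26 B6 higher and 19 JF1 higher, and 50 of 51 with a coding sequence had a near-identical copy. Rpl37a, of the large subunit, had 91.6 to 95.3% B6 with 10 copies, and Rps6, of the small subunit, 82.6 to 85.4% B6 with 14. Rplp1 stood at 40.1% ± 2.37 B6 over 1 strain difference. In the list of genes known for many processed copies, 24 of 26 were called (92.3%). Nuclear subunits of the respiratory chain, of which 16 of 53 had a copy, were called in 31 of 53 (58.5%), 15 B6 higher and 16 JF1 higher. Uqcrc1, a core subunit of complex III without a copy, had 73.7 to 86.4% B6 over 3 to 4 strain differences. Atp5h, of the ATP synthase, had 32.4 to 37.3% B6 and 6 copies. Depth was not matched between the lists and all genes. Of all members with 1000 or more read bases per library 81% were called, and Rpl37a had 1027 and Rps6 1554. The parts of depth and of copies in these shares were not tested.

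Zinc finger, cadherin and MHC genes lie in clusters of related genes. Of 238 Zfp zinc finger genes, 60 were B6 higher and 36 JF1 higher, or 40.3% of those tested. Zfp862 had 87.0 to 97.2% B6 over 41 strain differences, and Zfp809, a repressor of retroviral sequences, 15.9 to 27.1% B6. Of 67 cadherins and protocadherins, 19 were B6 higher and 11 JF1 higher (44.8%). Clustered protocadherins, which give neurons their surface identity, share constant exons between isoforms, so read bases there may be shared too. Of 21 single isoforms of the gamma cluster tested, 17 were members, 6 of them called B6 higher and 6 JF1 higher. Pcdhgb1 stood at 61.6% ± 6.51 B6 (SD, n = 7), and Pcdhga7 and Pcdhgb7 at 29.9 and 28.6% B6. In the MHC region, H2-K1 lay on the JF1 side, while the other class I gene H2-D1 had 58.3 to 78.8% B6 and Tapbp, which helps load peptides on class I molecules, 32.6 to 45.9%. These genes have close paralogs and diverge between strains, so their counts are uncertain.

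**Figure D3:**
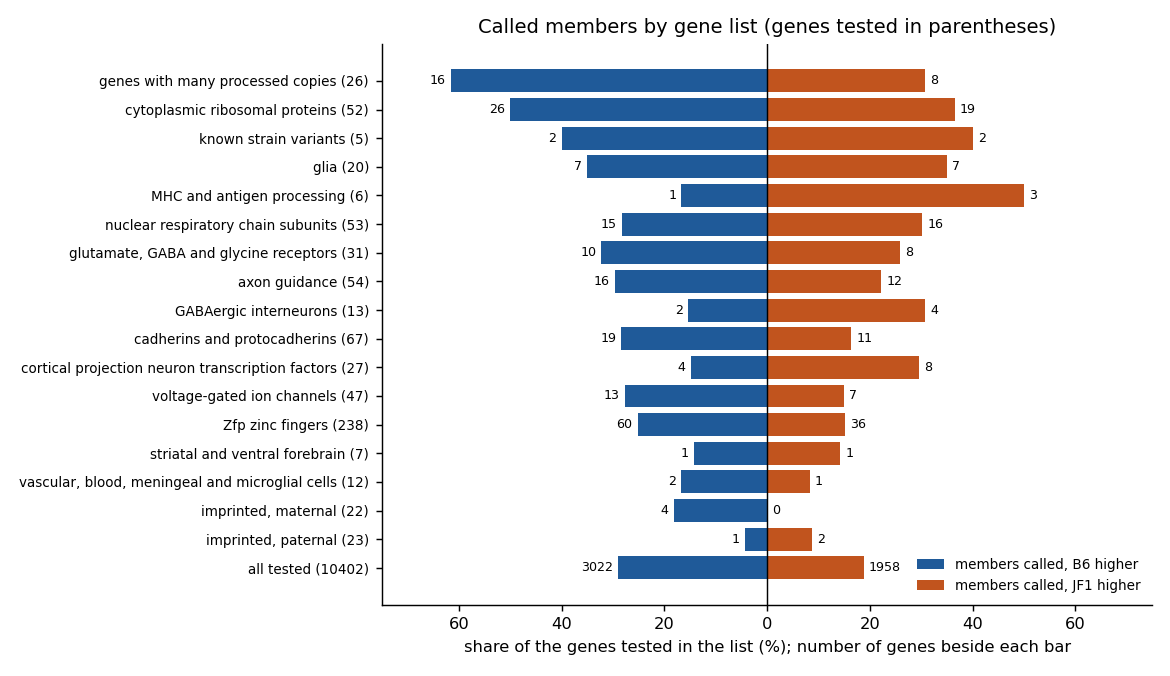
Percentage (horizontal axis) of the tested genes in each list that were members and called B6 higher or JF1 higher, to the left of 0 for B6 and to the right for JF1, with the bottom row for all 10402 genes tested. Ribosomal protein genes (86.5%) and genes with many processed copies (92.3%) stand above the 47.9% of all genes, without matching for depth. Imprinted genes stand below that share (18.2 and 13%), since the rule itself leaves most of them out.

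Among genes where strain variants are known, Ednrb, the endothelin receptor of which JF1 carries the piebald allele, had 64.5, 58.6, 65.4 and 60.1% B6 in BJ1 and 68.8, 64.3 and 68.0% B6 in JB6 (NCBI gene 13618, chromosome 14, 27 strain differences). B6 was 1.83-fold higher than JF1 (log2 0.87, SE 0.0552, adjusted p 1.53e-16). Glo1, a glyoxalase with a copy number variant among laboratory strains, had 23.4, 25.9, 25.2 and 26.2% B6 in BJ1 and 22.4, 24.5 and 25.6% B6 in JB6. JF1 was 3.05-fold higher than B6 (log2 -1.61, SE 0.0510, adjusted p 2.67e-26). All libraries of both genes lay on 1 side. Gabra2, a GABA-A receptor subunit with 37.6 read bases per library, ranged between 26.0 and 66.7% B6. Nnt, a mitochondrial transhydrogenase partly deleted in the C57BL/6J substrain, was not called by edgeR at 53.7% ± 5.17 B6 (adjusted p 0.114) but was B6 higher with limma (log2 0.24, adjusted p 0.0386). At E13.5 it was JF1 higher, at 38.6% ± 3.28 B6 (SD, n = 6; edgeR adjusted p 4.92e-09). The labels of the in vivo samples do not name the substrain.

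Imprinted genes were mostly left out by the rule, since it keeps only genes on 1 strain side in both crosses: 6 of 22 listed maternal genes and 4 of 23 paternal genes were members. A parental difference was called in 57 of 10402 genes (0.548%; 0.231% maternal higher, 0.317% paternal higher), in 9 of the 8224 members (0.109%) and in 48 of the 2178 other genes (2.2%). Among the members, Ipw, a non-coding RNA of the Prader-Willi region, had 0, 0, 0 and 0% B6 in BJ1 and 33.6, 36.2 and 30.7% B6 in JB6. Its 0 of B6 in BJ1, where B6 is maternal, allows a share of up to 2.06 to 2.46%, while JF1 read bases were found in JB6, where JF1 is maternal. Igf2, a paternally expressed growth factor, had 46.1, 52.3, 53.2 and 50.2% B6 in BJ1 and 70.0, 70.7 and 67.3% B6 in JB6, and the parental term stood at -0.59 maternal over paternal (SE 0.0568, adjusted p 3.75e-10). Without a parental term the strain call of Igf2 ended (adjusted p 0.119), as did that of Ipw (0.0545). Mrgpre averaged 73.6% B6 in BJ1 and 61.1% in JB6, and Gstm5, a glutathione transferase, 74.7 and 83.6%. Dpysl2, described above, had a small parental difference beside its strain difference (log2 -0.13, adjusted p 7.19e-04), and its JB6 libraries lay above the BJ1 libraries without overlap. The 9 members with a parental difference became 4 with DESeq2 and 3 with limma, 5 without BJ1 replicate 1 and 3 without JB6 replicate 3.

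The E13.5 libraries were not used by the rule. There, 45.9% of 9999 genes were called for strain (28.1% B6 higher, 17.8% JF1 higher). Of the 4980 members called at P0, 4641 were tested at E13.5, and 2941 of them (63.4%) were called in the same direction and 111 (2.39%) in the opposite one. By direction, 1896 of 2837 members on the B6 side (66.8%) and 1045 of 1804 on the JF1 side (57.9%) were called again. With a log2 difference of 1 or more at P0, 400 of 430 were called again (93%), and under 0.5, 1756 of 3134 (56%). All 49 near-complete genes tested at E13.5 were called in the P0 direction. The E13.5 libraries share the strains and the way of counting with P0, so read bases misassigned between gene and copy could recur there. The part of such read bases was not tested. Fam134c had 74.9% ± 2.11 B6 at E13.5, Dpysl2 23.9% ± 2.09 and Ednrb 68.0% ± 3.10 (SD, n = 6).

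The strain difference itself differed between P0 and E13.5 in 1117 of 7585 members tested (14.7%), against 13.3% of all 9564 genes tested (6.97% toward B6 at P0, 6.34% toward JF1). In 595 members it moved toward B6 at P0 and in 522 toward JF1, and in 100 by a log2 of 1 or more. The count was 640 with limma and 406 with the counts divided by 3. Tissue and age both differ between these samples, and the share of each cell type could too, and these cannot be told apart. The lowest, median and highest B6 shares of Sema3c were 74.9, 79.0 and 84.1% at P0 and 54.0, 59.2 and 62.1% at E13.5 (difference 1.46 on the log2 scale, SE 0.117, adjusted p 5.64e-14). Pttg1, a securin of the cell cycle, had 40.7, 48.4 and 55.9% B6 at P0 and 11.8, 13.3 and 15.5% at E13.5 (difference 2.53, adjusted p 1.90e-24). Pcdh15, a protocadherin of sensory hair cells, had 46.3, 51.0 and 60.2% at P0 and 8.46, 14.1 and 22.7% at E13.5. These genes lay near 50% or on the B6 side at P0. The stages did not overlap in them, but they were described because their stage difference was called.

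In Kbtbd11 the B6 excess was smaller at P0, with 59.6, 61.4 and 65.2% B6 at P0 and 86.2, 91.8 and 95.2% at E13.5 (difference -2.67, SE 0.116, adjusted p 3.79e-23). Fabp7 lay on opposite sides, with 55.5, 56.5 and 59.3% at P0 and 41.0, 43.8 and 47.6% at E13.5 (difference 0.72, adjusted p 8.20e-16). Eomes was on the JF1 side at P0 and close to even before, with 34.3, 41.6 and 44.4% at P0 and 48.6, 50.0 and 52.0% at E13.5. Car8, a carbonic anhydrase-related protein, had 62.7, 66.4 and 74.0% at P0 and 0, 18.3 and 33.3% at E13.5, where it rested on 44 read bases per library. Cpxm2 moved the other way, with 22.1, 34.6 and 38.0% at P0 and 60, 73.6 and 91.3% at E13.5. In these genes too the libraries of the stages did not overlap, and they too were described because their stage difference was called. How many of all genes tested show no overlap was not counted, so nothing is read from it.

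**Figure D4:**
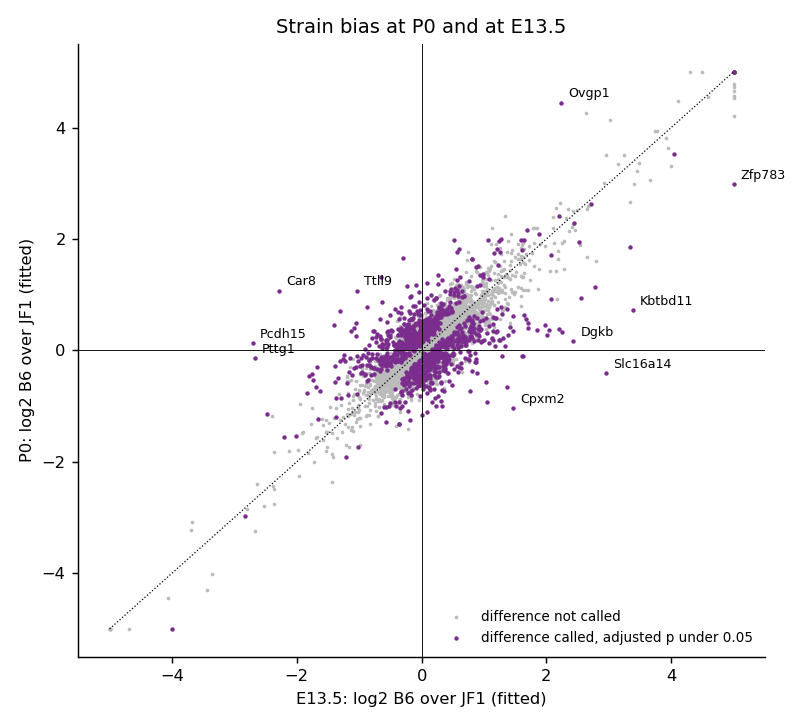
Log2 difference between B6 and JF1 at P0 (vertical axis) against E13.5 (horizontal axis) for members tested at both stages, with values beyond 5 drawn at 5. The 1117 members with a called difference between the stages are marked, and among the labelled genes Pttg1 and Pcdh15 lie above the diagonal and Kbtbd11 below it.

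In the 18 libraries of E13.5 tissue and culture, 17 of 20 leading P0 genes kept the P0 side throughout. Only libraries with 20 or more read bases were used, and Aox4, counted among the 17, had no such library. Of 338 gene-by-library values, 325 lay on the P0 side. Glo1 kept its side, but averaged 45.9% B6 in ES cells, 42.4% at day 12 and 40.2% at day 21, against 24.7% in P0 cortex. Fam134c, outside these 20, had 73.4% B6 in ES cells, 71.6% at day 12 and 71.6% at day 21 of culture. Dpysl2, also outside them, had 22.8, 21.8 and 23.3%. The exceptions among the 20 were Hddc3, Grik4 and H2-K1. H2-K1 had 57.5% B6 in ES cells, 51.8% at day 12 and 45.4% at day 21, and Grik4 54.4 and 50.1% at days 12 and 21. Wdfy1, outside the 20 as well, was B6 higher in ES cells (74.7%), where P0 cortex had 29.8%. Uqcrc1 averaged 79.4% B6 in P0 cortex and 77.6% at E13.5, but had 0 B6 among the 98 to 253 read bases of each of the 12 culture libraries, which allows a share of up to 1.19 to 3.06%. Myo7a, at 96.0% B6 in P0 cortex and 97.1% at E13.5, had 12.7% at day 12 and 0.658% at day 21 of culture. The B6 parent of the cultures carried traces of CBA genome, and its part in these differences was not tested.

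**Figure D5:**
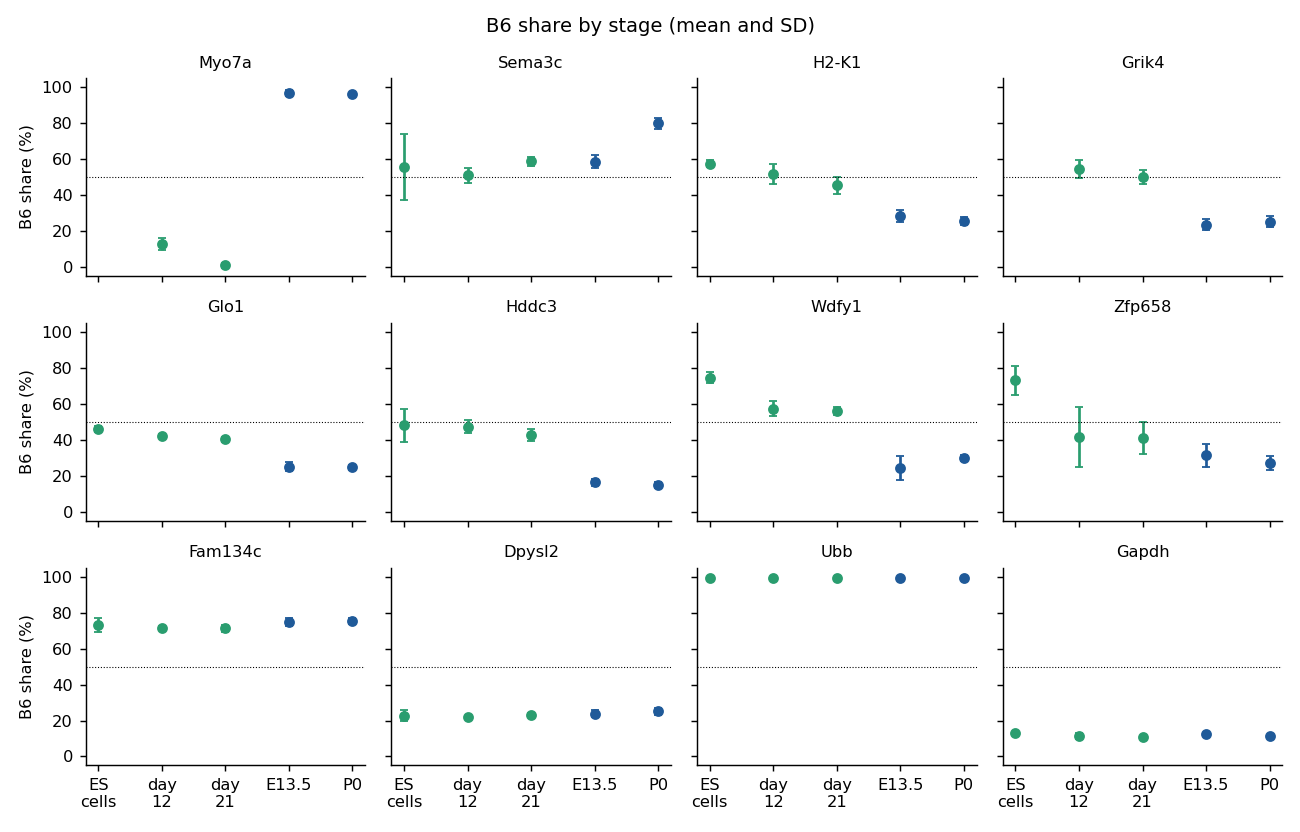
Mean B6 share (percent, vertical axis, bars SD) of 12 genes in cultured ES cells, day 12 and day 21 cultures (green, 4 libraries each), E13.5 tissue (6) and P0 cortex (7, both blue). Fam134c stays between 71.6 and 75.4% and Dpysl2 between 21.8 and 25.2%, while H2-K1 stands at 25.3% in P0 cortex and 57.5% in ES cells.

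The share of members called varied with depth. Members with 20 to 50 read bases per library were called in 43.9% of cases with a median log2 size of 0.93 among the called, and those with 1000 or more in 81% with a median size of 0.21. The median SD of the B6 share over the 7 libraries was 9.18 percentage points in the shallowest class and 1.38 in the deepest. The share called also varied with strain differences read, from 47.8% at 3 or fewer to 76.3% above 30. Median depth in these classes was 99.7 and 598 read bases, and the parts of depth and positions were not tested. Just inside the rule lay Mycl1, with means of 52.6% B6 in BJ1 and 50.0% in JB6, and just outside it C1d, with 51.4% in BJ1 and a JB6 mean that rounds to 50.0% but fell below it. Members called B6 higher were 55.3% of the called on chromosome 18 and 67.2% on chromosome 9, the lowest and highest of 19 autosomes. Of 2452 pairs of neighbouring called genes, 54.9% shared a direction, beside 52.3% from the shares of both directions alone.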

How the data were processed

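The deposited tables hold raw counts: per the deposited readme, the authors summed sense read bases at B6/JF1 differences over each gene, separately for the maternal and the paternal allele, with SAMtools mpileup 0.1.18, pileup2base and Annovar. Build mm9 and Novoalign are named in the submitters' processing notes. Of 12508968 differences, 6252 that matched CBA or DBA sequence were removed (the readme's summary gives 37985). Differences lying in 2 genes were counted under a joint name. Read bases of 1 read are not independent, so counts divided by 3 were an alternative.

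Maternal and paternal counts were turned into B6 and JF1 counts by cross. Autosomal genes with a mean of 20 or more read bases were fitted with edgeR 4.0.16 in R 4.3.3 (quasi-likelihood, robust, 2 columns per library, the same library size for both, terms for library, strain and parent), with Benjamini-Hochberg adjustment and calls at an adjusted p under 0.05. SEs were derived from the F statistic and are approximate. At E13.5 the same fit was used, and the difference between stages was a contrast in a joint fit. On simulated counts of 10353 genes for the P0 strain term, 53 of 66 genes changed by a log2 of 0.5, 64 of 66 by 1 and 68 of 68 by 2 were called, with 14 unchanged genes. These counts were independent draws with the same dispersion for every gene, and far fewer genes were changed than were called in the data. The rates hold for that setting only and do not give the error rates of the read bases. Copies were sought with BLAST+ 2.17.0 among 13510 GENCODE M21 pseudogene transcripts.

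The members and lists were chosen with earlier results of these data known. Named genes were the 10 per direction with the largest called differences at 200 or more read bases, up to 4 per list and direction, the 10 with the most read bases, known variants, 6 with a parental difference, 5 per direction with the largest stage differences and 3 on each side of the rule's edge. Genes named beside these (the well-covered set, Hmgb1, Hnrnpf, Ppp1cc, Myo7a, Zfp658) were chosen after values were seen. A few genes that these rules name are not reported here. Alternatives were DESeq2 1.42.0, limma 3.58.1, other floors, TMM factors per allele, no parental term, a replicate block and leaving out each library.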

Additional observations from a re-analysis of the deposited data

Results flagged for a closer look

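In 12 of 165 groups of 4 BJ1 libraries, 1 library lay apart from the other 3 by Dixon's 95% criterion, which chance meets in about 1 in 20 groups. The 11 described here are as follows. BJ1 replicate 2, the male library, was apart in Actg1 at 84.2% B6 (others 86.3 to 86.6%), Cux2 at 52.2% (56.0 to 56.7%) and Rps23 at 2.94% (others 0). BJ1 replicate 1 was apart in Fabp7 at 56.5% (55.5 to 55.6%), Rps4y2 at 75.7% (63.3 to 65.0%), Hspa8 at 99.9% and Rpl15 at 99.95% (others 100% in both). BJ1 replicate 3 was apart in Pcdhga7 at 25.9% (29.9 to 30.7%) and Scoc at 99.8% (others 100%). BJ1 replicate 4 was apart in Gabarapl2 at 99.4% (others 100%) and Morf4l1 at 1.06% (others 0). In Rps23, Hspa8, Rpl15, Scoc, Gabarapl2 and Morf4l1 the other 3 libraries tie at 0 or 100%, so any departure from that bound meets the criterion. The library apart held 4 B6 read bases in Morf4l1 and 1 read base of the minor allele in each of the other 5.

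For 15 named members the B6 over JF1 difference at P0 minus that at E13.5 was itself called by edgeR's quasi-likelihood test. It was positive, toward B6 at P0, for Car8 (log2 3.34), Pcdh15 (2.84), Pttg1 (2.53), Ovgp1 (2.21), Ttll9 (2.11), Sema3c (1.46), Nnt (0.92), Tuba1a (0.73) and Fabp7 (0.72). It was negative for Slc16a14 (-3.36), Kbtbd11 (-2.67), Cpxm2 (-2.49), Dgkb (-2.27), Zfp783 (-2.06) and Eomes (-0.62). The libraries of both stages overlapped in Ovgp1 and Zfp783. Slc16a14, Ttll9 and Dgkb rested on fewer than 50 read bases per library at each stage.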

How the results depend on the processing

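Of 2668 checks of 165 named genes under the alternatives, 2569 kept direction and side of the threshold, 93 lost the call, 5 gained one and 1 reversed, Gng2 with TMM factors per allele (log2 -0.00235, adjusted p 0.925). Calls on the JF1 side were 1250 with DESeq2 and 1280 with counts divided by 3, against 1972. Members with a parental difference were 4 with DESeq2, 4 with counts divided by 3 and 3 with limma, against 9, and 3 to 10 when single libraries were left out. Members whose strain difference changed between stages were 406 with counts divided by 3 and 640 with limma, against 1117. The cause was not tested. Without single P0 libraries the strain calls were 4454 to 4781 against 5012 and the members 8013 to 8221 against 8224. Without single E13.5 libraries, the members called in the same direction at E13.5 were 2688 to 2801 against 2941. The replicate block gave 4705 calls, 4548 of them shared. The allele ratios of same-numbered BJ1 and JB6 libraries did not deviate together (correlations of -0.00331, 0.00654 and 0.0204 over 7287 genes). Effects shared by both alleles of a library cancel in that ratio, so these values cannot show whether the numbers pair libraries. Zfp783's stage difference ended without JB6 replicate 1 (adjusted p 0.0659). Under 50 read bases per library, shares vary by about 9.18 percentage points and small differences were not detectable.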

Other observations

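Of the near-complete P0 genes, 28 of 33 measured in ES cells, 28 of 40 at day 12 and 34 of 42 at day 21 of culture were also at 95% or more from the same allele, as were 42 of 49 at E13.5, each with a mean of 20 or more read bases per library at that stage. The zinc finger gene Zfp658 averaged 27.0% B6 in P0 cortex and 31.4% in E13.5 tissue. In culture it averaged 73.3% in ES cells and 41.7 and 40.8% in the later stages. Ednrb had 87.4% B6 at day 12 and 79.0% at day 21. Tuba1a averaged 79.6% B6 in P0 cortex, against 35.9% in ES cells and 73.6% in the latest cultures.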
